A study of Rattus norvegicus with 4 samples.

Results

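The genes described here are 41 genes of hepatic stellate cells and of the extracellular matrix, taken by gene symbol from the 31457 genes of a normalized expression table of rat liver. They comprise collagens, small proteoglycans, matrix glycoproteins, cross-linking enzymes, matrix proteases and their inhibitors, contractile and cytoskeletal proteins, and receptors and retinoid enzymes of stellate cells. Liver RNA of Lewis rats (allotype RT1L) was profiled by poly(A) RNA sequencing in 4 libraries, with 1 library per group. The miR-27b liver came from partial hepatectomy, an operation that removes some of the liver's lobes, with intravenous cells labelled ASCs-miR27b. The siRNC liver came from partial hepatectomy with intravenous cells labelled ASCs-siRNC, and the saline liver from partial hepatectomy with intravenous saline. The naive liver is the control labelled naive. The labels spell out neither ASCs, read here as adipose-derived stem cells, nor siRNC, read here as a control RNA. Age, the time from surgery to collection, the source of the cells and the number of animals behind a library are not stated in these sources. With 1 library per group nothing can be checked against replicates, so conditions are described and not tested.

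Hepatic stellate cells lie between the sinusoidal endothelium and the hepatocytes, and in the resting state they store retinoid. On injury they can turn into myofibroblast-like cells that carry smooth muscle actin and secrete fibrillar collagen, while matrix is at the same time cut by metalloproteinases and protected by their tissue inhibitors. In the regenerating liver, matrix is remodelled as hepatocytes divide and sinusoids are rebuilt. Portal fibroblasts, smooth muscle cells and endothelial cells share many of these genes, so none of them marks stellate cells alone.

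None of the 41 genes was at 0 throughout, and 37 of them passed a filter asking for a mean of at least 10 normalized reads, as did 9871 genes of the whole table. Fmod, Loxl1, Mmp9 and Des did not pass. The deposited values are log2 values set against a baseline of each gene's own, so they compare libraries within a gene and give no level between genes. Read numbers could be inferred for 11 of the 41 genes. For other genes that passed, the values give only a class of at least 256 (13 genes), at least 16 (14 genes) or at least 4 normalized reads (2 genes, Col6a3 and Thbs1) at the baseline. From counting alone, the SD of a log2 fold is 0.51 between 2 libraries with 16 reads and 0.13 between 2 with 256. The size factors of the 4 libraries lay between 0.956 and 1.04, and such values do not give the total reads of a library.

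The promoters of 5 genes are printed because these genes carry the main patterns below. Lum and Postn stood far higher in the siRNC liver than in any other, Col1a2 was highest in the siRNC liver, and Col4a1 and Col4a2 were higher in every hepatectomised liver than in the naive liver. The sequences are from RefSeq (build GRCr8, not the build rn5 of the study), 250 bases before to 50 after the annotated start, 5′ to 3′ on the gene's own strand. Capitals mark 3 motifs, each searched on both strands. One is the TATA box, searched as TATAAA. Another is the CCAAT box, which reads ATTGG where it lies on the opposite strand. The other is the GC box, searched as GGGCGG, which reads CCGCCC where it lies on the opposite strand. No 2 marked matches overlap.
Lum (gene ID 81682, chr7:34245456-34245755, plus strand): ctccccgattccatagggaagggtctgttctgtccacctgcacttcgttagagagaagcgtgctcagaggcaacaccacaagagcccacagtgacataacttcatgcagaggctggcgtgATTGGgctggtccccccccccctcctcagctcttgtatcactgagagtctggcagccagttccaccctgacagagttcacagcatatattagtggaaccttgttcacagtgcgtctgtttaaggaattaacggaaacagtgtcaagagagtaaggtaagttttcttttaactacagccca
Postn (gene ID 361945, chr2:140677811-140678110, plus strand): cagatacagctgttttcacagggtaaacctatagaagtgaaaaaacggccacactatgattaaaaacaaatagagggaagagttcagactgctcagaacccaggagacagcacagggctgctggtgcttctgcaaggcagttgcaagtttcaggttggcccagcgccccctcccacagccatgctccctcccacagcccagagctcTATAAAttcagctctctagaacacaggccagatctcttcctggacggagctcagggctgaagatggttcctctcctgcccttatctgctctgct
Col1a2 (gene ID 84352, chr4:33518307-33518606, plus strand): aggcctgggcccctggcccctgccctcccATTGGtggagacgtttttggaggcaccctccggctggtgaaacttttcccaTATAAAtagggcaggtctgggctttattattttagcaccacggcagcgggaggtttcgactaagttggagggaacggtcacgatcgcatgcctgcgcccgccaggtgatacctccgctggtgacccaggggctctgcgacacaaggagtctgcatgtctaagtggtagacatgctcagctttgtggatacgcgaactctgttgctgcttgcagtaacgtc
Col4a1 (gene ID 290905, chr16:84885347-84885646, plus strand): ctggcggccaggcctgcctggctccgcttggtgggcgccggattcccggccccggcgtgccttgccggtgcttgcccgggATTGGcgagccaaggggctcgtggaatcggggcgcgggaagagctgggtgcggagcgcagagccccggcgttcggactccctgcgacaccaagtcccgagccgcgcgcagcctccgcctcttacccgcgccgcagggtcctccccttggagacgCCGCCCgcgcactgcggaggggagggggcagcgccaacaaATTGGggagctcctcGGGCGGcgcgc
Col4a2 (gene ID 306628, chr16:84885471-84885770, minus strand): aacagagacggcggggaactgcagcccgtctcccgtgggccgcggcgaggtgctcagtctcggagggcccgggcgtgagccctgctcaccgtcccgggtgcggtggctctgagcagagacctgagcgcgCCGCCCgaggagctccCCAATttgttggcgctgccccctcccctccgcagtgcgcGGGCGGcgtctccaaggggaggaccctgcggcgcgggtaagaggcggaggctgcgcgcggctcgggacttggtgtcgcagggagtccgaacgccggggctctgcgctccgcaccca

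Of the 41 genes, 24 had a promoter in the RefSeq table. TATAAA was found in 4 of these 24 (16.7%), against 14.2% of all 33469 promoters of the same length. CCAAT was found in 10 of 24 (41.7%), against 37.5% of all promoters, and GGGCGG in 13 of 24 (54.2%), against 33.1%. The CArG box, the motif of serum response factor, was found in none of the 24, against 1.64% of all promoters. For so rare a motif 24 promoters are too few to read anything from this. Col1a1, Dcn and Tagln were among the genes without a promoter to search. Postn holds TATAAA at -44 to -39, counted from the start, and no GGGCGG in this window. Col4a1 and Col4a2 lie head to head on opposite strands, with annotated starts 77 bases apart, so that their windows overlap by 176 bases and share the printed motifs of that stretch. These matches describe letters in a window and not bound sites. The mature miRNA that gives its name to one cell preparation is printed for reference, with its seed (bases 2 to 8) in capitals; the labels do not say which arm was introduced.
rno-miR-27b-3p (chr17:1819163-1819183, minus strand, GRCr8): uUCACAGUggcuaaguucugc

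Against the naive liver, most of the genes stood higher in each hepatectomised liver. Tagln, Acta2, the basement membrane collagens Col4a1 and Col4a2, and the microfibril gene Fbn1 led in the miR-27b liver, and Col1a1, Lum and Postn led in the siRNC liver. In the miR-27b liver, 18 of the 37 (48.6%) were at least 2-fold higher than in the naive liver, against 8.97% of all 9871 genes, and 1 gene was at least 2-fold lower (2.70%), against 4.47%. In the siRNC liver, 23 of 37 (62.2%) were at least 2-fold higher, against 6.24% of all genes, and 1 was lower (2.70%), against 3.82%. In the saline liver, 11 of 37 (29.7%) were at least 2-fold higher, against 5.91% of all genes, and 2 were lower (5.41%), against 4.16%. The median log2 fold of the 37 genes against naive was 0.98 in the miR-27b, 1.11 in the siRNC and 0.68 in the saline liver, where the medians of all genes were -0.02, -0.003 and -0.01. The 23 genes higher in the siRNC liver include Lum and Postn, which passed the filter only through the siRNC library. Thbs1 and Col6a3, also among them, lay in the lowest class and may have passed in the same way. The 18 higher in the miR-27b liver include Timp1, which passed it only through the miR-27b library. The naive library enters all 3 comparisons, so they are not independent of each other. In bulk tissue, more cells of a type and more RNA per cell cannot be told apart.

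**Figure D1:**
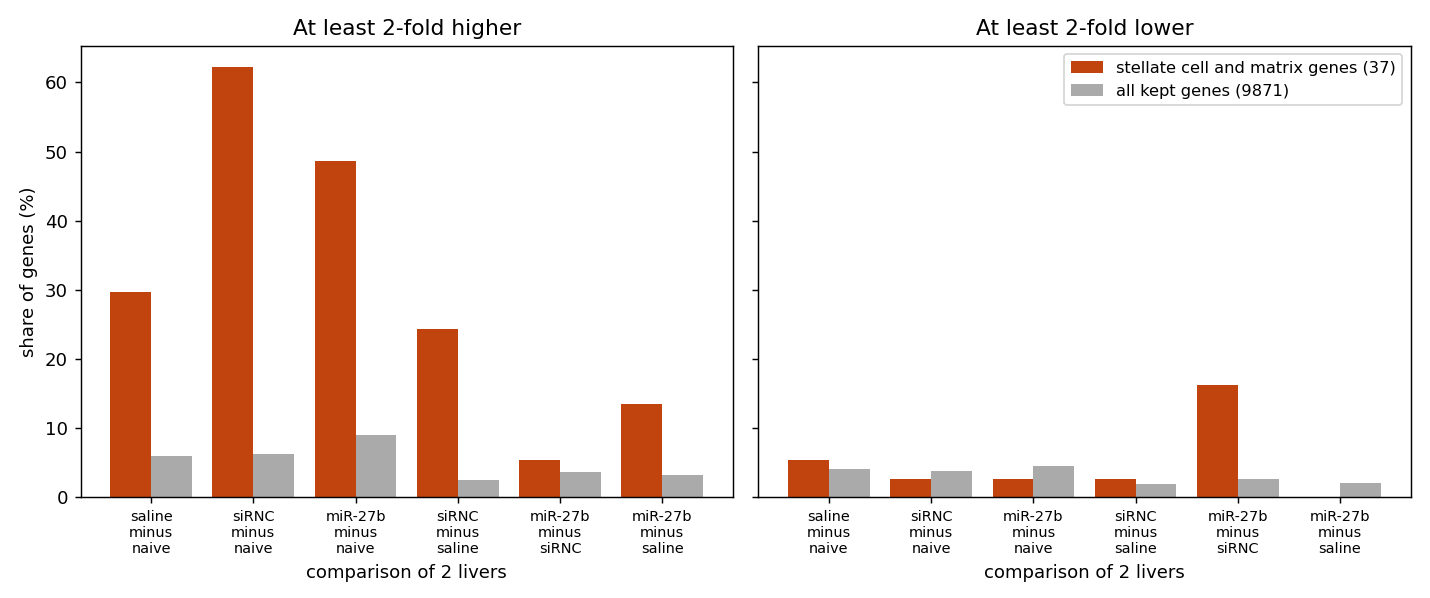
Bars give the share of genes (%) at least 2-fold higher (left) or lower (right) in each comparison of 2 livers, for the 37 stellate cell and matrix genes that passed the filter and for all 9871 genes. The 3 comparisons with the naive liver show 48.6%, 62.2% and 29.7% of the genes higher in the miR-27b, siRNC and saline livers.

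The same direction in every hepatectomised liver was seen for 11 of 37 genes (29.7%), each at least 2-fold higher than naive in all 3, against 3.50% of all genes. They were Col1a1, Col3a1, Col4a1, Col4a2, Col5a2, Eln, Fbn1, Loxl2, Sparc, Tagln and Vim. Lox was the one gene at least 2-fold lower in all 3 (2.70%), against 1.28% of all genes. The naive library was the lowest of the 4 for 26 of 37 genes (70.3%), against 29.6% of all genes, and the highest for 3 of them, Ecm1, Lox and Mmp14 (8.11%), against 32.3%.

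**Figure D2:**
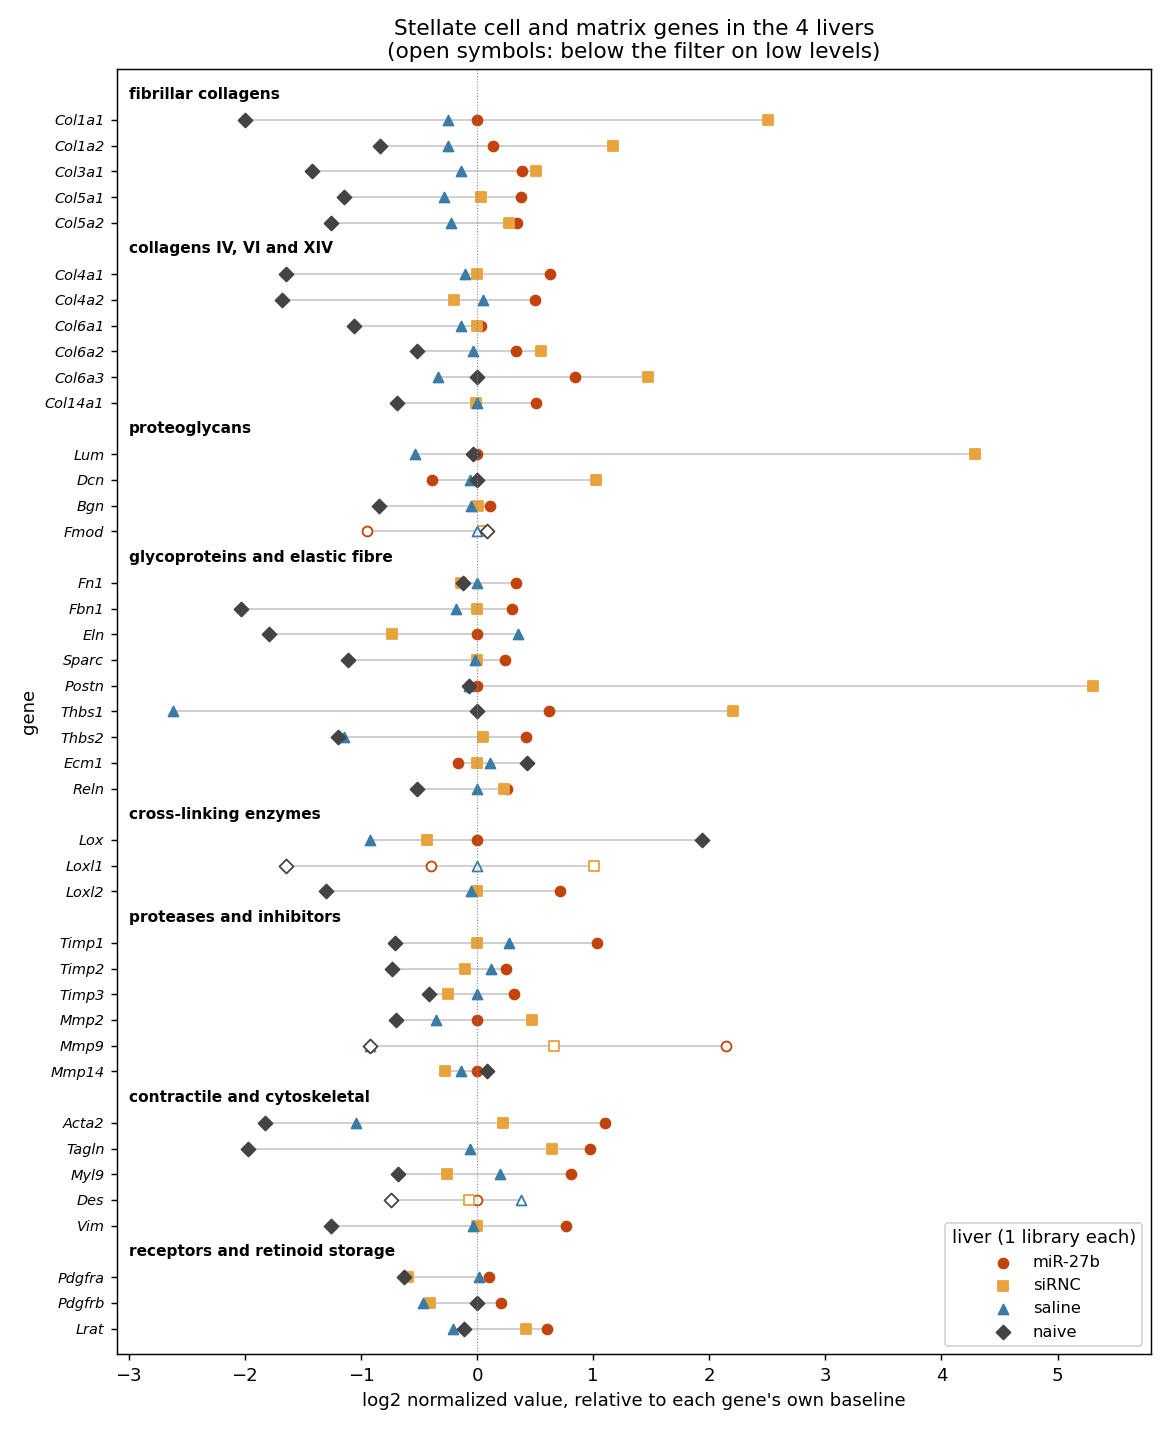
Each row is 1 of the 41 genes and each symbol 1 liver, at its log2 normalized value relative to the gene's own baseline; open symbols are the genes that did not pass the filter. The naive liver lies at the low end of most rows, Lox is the reverse at 1.94 in the naive liver, and Lum, Postn and Col1a1 stand out to the right in the siRNC liver at 4.29, 5.30 and 2.50.

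The fibrillar collagens form the tensile fibres of scar and capsule. Col1a1, the major chain of type I collagen (gene ID 29393), had log2 values of 0.00 in the miR-27b, 2.50 in the siRNC, -0.25 in the saline and -2.00 in the naive liver. Its partner chain Col1a2 (84352) had 0.14 in the miR-27b, 1.17 in the siRNC, -0.25 in the saline and -0.83 in the naive liver. For both chains the siRNC liver was highest and the naive liver lowest, and the range was wider for Col1a1. The type III collagen gene Col3a1, whose product forms fibres with type I, had 0.38 in the miR-27b, 0.51 in the siRNC, -0.14 in the saline and -1.42 in the naive liver. Here the miR-27b and siRNC livers were close, with a log2 fold of -0.12 between them. The type V chains Col5a1 and Col5a2, which set the width of fibres, stood 1.53 and 1.60 above naive in the miR-27b liver, 1.18 and 1.54 in the siRNC liver, and 0.86 and 1.03 in the saline liver. All 5 fibrillar collagen genes were at least 2-fold above naive in the siRNC liver, 4 in the miR-27b liver and 3 in the saline liver. Of all genes, 6.24%, 8.97% and 5.91% were, in the same order.

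Type IV collagen is the network of basement membranes. Col4a1 (290905) had log2 values of 0.63 in the miR-27b, 0.00 in the siRNC, -0.10 in the saline and -1.65 in the naive liver. Col4a2 (306628), its partner and head-to-head neighbour, had 0.50 in the miR-27b, -0.20 in the siRNC, 0.06 in the saline and -1.68 in the naive liver. Unlike type I, these 2 chains were highest in the miR-27b liver, at log2 folds of 2.27 and 2.18 over naive, and the siRNC and saline livers lay within 0.26 of each other. The chains of type VI collagen, a beaded filament that links fibres to cells, were less even. Col6a1 and Col6a2 stood 1.10 and 0.85 above naive in the miR-27b liver, 1.06 and 1.07 in the siRNC liver and 0.92 and 0.49 in the saline liver. Col6a3, in the class of at least 4 reads, had 0.85 in the miR-27b, 1.47 in the siRNC, -0.34 in the saline and 0.00 in the naive liver. Col14a1, a collagen bound to the fibre surface, stood 1.19 above naive in the miR-27b, 0.67 in the siRNC and 0.68 in the saline liver.

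The small proteoglycans of the collagen surface differed from one another. Lum, which encodes lumican (81682), had 4 inferred reads in the miR-27b, 82 in the siRNC, 3 in the saline and 4 in the naive library. The siRNC liver alone was high, at a log2 fold of 4.32 over naive (95% interval 2.91 to 6.23) and 4.82 over saline (3.22 to 7.13). The miR-27b liver was at -4.29 against siRNC (-6.19 to -2.87) and at 0.54 against saline (-2.03 to 3.31), an interval that includes 0. These are exact conditional binomial intervals and cover counting error only, not the spread between animals. Dcn, which encodes decorin (29139), had log2 values of -0.38 in the miR-27b, 1.03 in the siRNC, -0.06 in the saline and 0.00 in the naive liver, again highest in the siRNC liver. Bgn, which encodes biglycan, had 0.11 in the miR-27b, 0.01 in the siRNC, -0.05 in the saline and -0.84 in the naive liver, so that its 3 hepatectomised livers lay close together. Fmod, which encodes fibromodulin, was at the floor in the miR-27b library and had 2 reads in each other library.

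**Figure D3:**
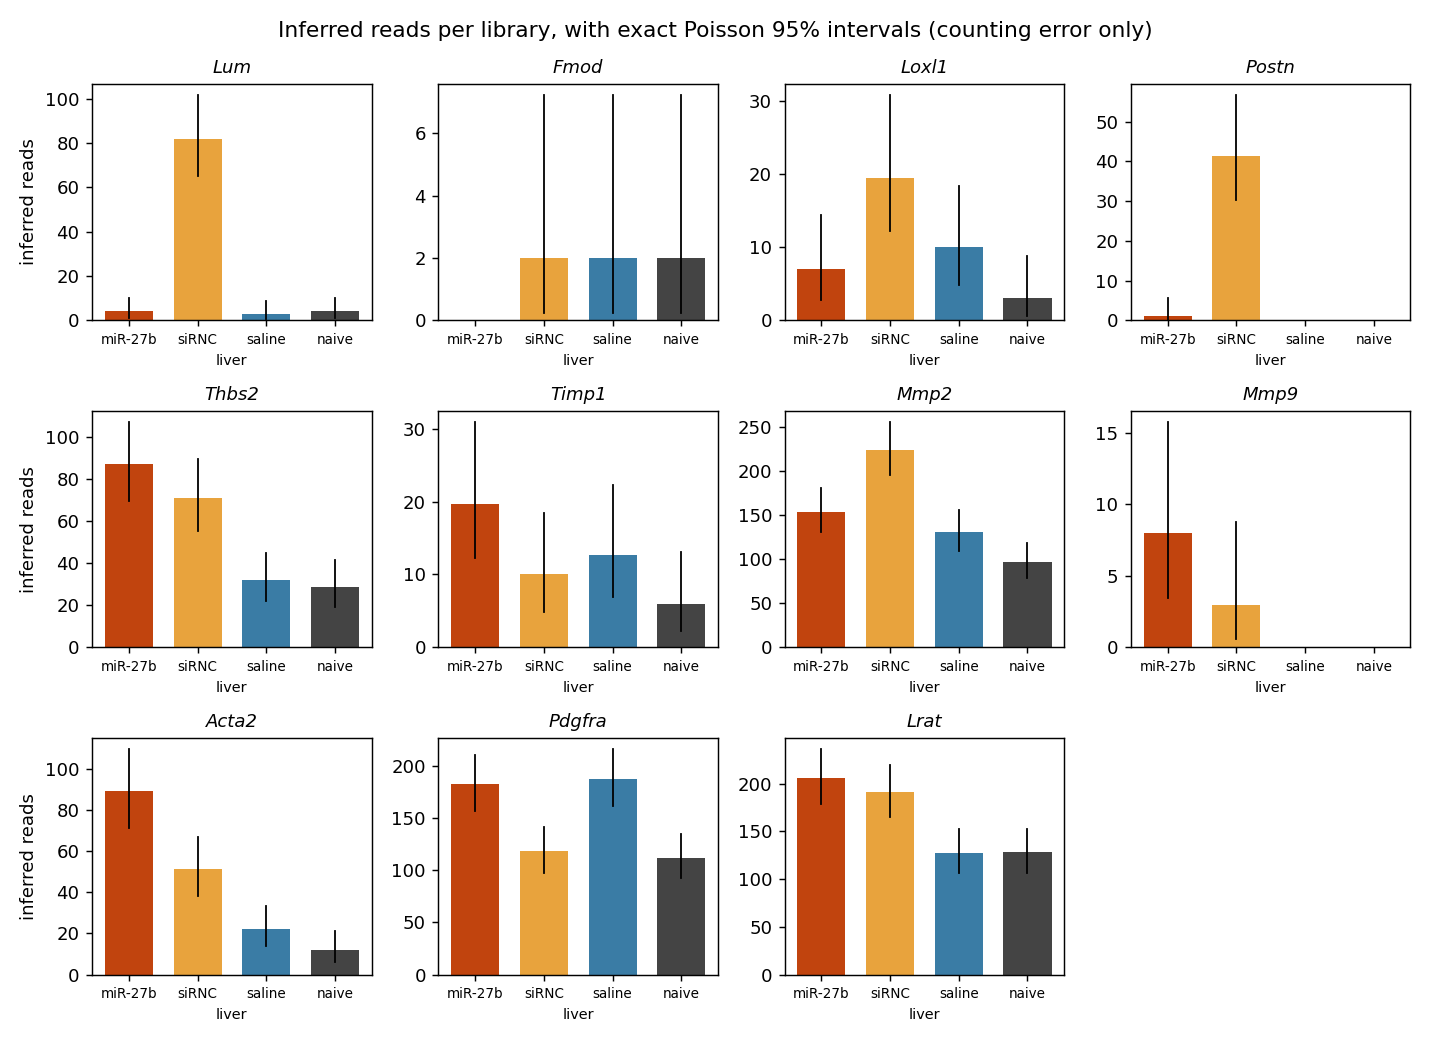
Inferred reads in each of the 4 libraries for the genes whose reads could be recovered, with exact Poisson 95% intervals for counting error only; libraries at the floor of the table are drawn at 0 with no interval. Lum and Postn are high in the siRNC library alone, at 82 and 41.5 reads, while Acta2 is highest in the miR-27b library, at 89 reads.

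Among matricellular glycoproteins, which modulate how cells meet the matrix, the siRNC liver again stood apart for some genes. Postn, which encodes periostin (361945), had 1 inferred read in the miR-27b and 41.5 in the siRNC library, and was at the floor in the saline and naive libraries. If a library at the floor is allowed up to 3 reads, the siRNC liver was at least 14.3-fold above saline and at least 13.4-fold above naive. The miR-27b liver was at a log2 fold of -5.30 against siRNC (95% interval -10.66 to -2.76). Lum and Postn passed the filter only through the siRNC library, so that they had to differ there. Thbs1, which encodes thrombospondin 1, an activator of latent TGF beta, had log2 values of 0.62 in the miR-27b, 2.21 in the siRNC, -2.62 in the saline and 0.00 in the naive liver. It lay in the class of at least 4 reads at its baseline, where counting error is wide. Its saline value is low enough to be the floor of the table, so its folds over saline may not be ratios of reads. Thbs1 may also have passed the filter only through the siRNC library. Thbs2, its close relative, had 87.2 reads in the miR-27b, 71 in the siRNC, 32 in the saline and 29 in the naive library. The livers given cells were therefore high and the others low, with log2 folds over saline of 1.57 in the miR-27b (0.96 to 2.20) and 1.20 in the siRNC liver (0.58 to 1.85). Sparc, a collagen-binding glycoprotein, stood 1.35 above naive in the miR-27b, 1.11 in the siRNC and 1.09 in the saline liver.

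Elastic fibre genes were higher after hepatectomy in every liver. Fbn1, which encodes the microfibril protein fibrillin 1, had log2 values of 0.30 in the miR-27b, 0.00 in the siRNC, -0.18 in the saline and -2.03 in the naive liver. Eln, which encodes elastin, had 0.00 in the miR-27b, -0.73 in the siRNC, 0.36 in the saline and -1.79 in the naive liver, and was the one gene of the 37 highest in the saline liver. Fn1, which encodes fibronectin, a gene also expressed by hepatocytes for plasma, ranged only between -0.14 and 0.33. Reln, which encodes the glycoprotein reelin, stood 0.78 above naive in the miR-27b, 0.75 in the siRNC and 0.52 in the saline liver. Ecm1, shown in mice to restrain TGF beta activation, was lower than naive by less than 2-fold, at -0.59 in the miR-27b, -0.43 in the siRNC and -0.32 in the saline liver.

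Enzymes that cross-link collagen and elastin differed from each other. Lox, which encodes lysyl oxidase (24914), had log2 values of 0.00 in the miR-27b, -0.43 in the siRNC, -0.92 in the saline and 1.94 in the naive liver. It was the reverse of the collagens, with log2 folds against naive of -1.94 in the miR-27b, -2.37 in the siRNC and -2.86 in the saline liver. Loxl2, a relative that acts on type IV collagen, had 0.71 in the miR-27b, 0.00 in the siRNC, -0.05 in the saline and -1.30 in the naive liver, in the same order as Col4a1. Loxl1, a relative needed for elastic fibres, did not pass the filter, with 7 reads in the miR-27b, 19.5 in the siRNC, 10 in the saline and 3 in the naive library.

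Proteases and inhibitors had a median log2 fold over naive of 0.73 in the miR-27b, 0.63 in the siRNC and 0.41 in the saline liver over 5 genes. Timp1, a tissue inhibitor of metalloproteinases, had 19.7 reads in the miR-27b, 10.1 in the siRNC, 12.6 in the saline and 6.02 in the naive library. It passed the filter only through the miR-27b library. Its log2 fold in the miR-27b liver was 1.74 over naive (95% interval 0.40 to 3.37) and 1.04 over siRNC (-0.09 to 2.33), and the second interval includes 0. Timp2 and Timp3, related inhibitors, stood 0.98 and 0.73 above naive in the miR-27b liver, 0.63 and 0.16 in the siRNC liver and 0.86 and 0.41 in the saline liver. Mmp2, a gelatinase of stromal cells, had 153.7 reads in the miR-27b, 224 in the siRNC, 131 in the saline and 97.0 in the naive library. It was highest in the siRNC liver, 1.17 above naive (0.82 to 1.53), and the miR-27b liver was at -0.47 against siRNC (-0.77 to -0.17). Mmp14, the membrane-bound activator of that gelatinase, ranged only between -0.28 and 0.09. Mmp9, a gelatinase carried by neutrophils and macrophages, did not pass the filter; it had 8 reads in the miR-27b and 3 in the siRNC library and was at the floor in the others.

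The 4 contractile and cytoskeletal genes that passed the filter were highest in the miR-27b liver. Acta2, which encodes the smooth muscle actin of myofibroblasts (81633), had 89 reads in the miR-27b, 51.2 in the siRNC, 22 in the saline and 12 in the naive library. Its order was miR-27b, siRNC, saline, naive, and its log2 folds over naive were 2.92 in the miR-27b (95% interval 2.05 to 3.93), 2.05 in the siRNC (1.12 to 3.09) and 0.79 in the saline liver (-0.29 to 1.93). The miR-27b liver was 0.87 above siRNC (0.36 to 1.40), while the last 2 in that order did not differ beyond counting error. Tagln, which encodes the actin-binding protein transgelin (25123), followed the same order, with 0.97 in the miR-27b, 0.64 in the siRNC, -0.06 in the saline and -1.97 in the naive liver. Vim, which encodes the filament protein vimentin, had 0.77 in the miR-27b, 0.00 in the siRNC, -0.03 in the saline and -1.26 in the naive liver. Myl9, a myosin light chain of smooth muscle, had 0.81 in the miR-27b, -0.26 in the siRNC, 0.20 in the saline and -0.68 in the naive liver. Des, which encodes desmin, a filament protein of rat stellate cells, did not pass the filter and stood 0.74 above naive in the miR-27b, 0.67 in the siRNC and 1.12 in the saline liver.

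Resting stellate cells also carry growth factor receptors and a retinoid enzyme. None of these 3 genes was 2-fold apart from naive in any liver. Pdgfra, a receptor for platelet-derived growth factor, had 182.2 reads in the miR-27b, 118.4 in the siRNC, 187 in the saline and 112 in the naive library. Its miR-27b and saline livers were high and its siRNC and naive livers low, with a log2 fold of 0.69 between miR-27b and siRNC (95% interval 0.36 to 1.04). Pdgfrb, the related receptor of stellate cells and pericytes, had log2 values of 0.20 in the miR-27b, -0.41 in the siRNC, -0.46 in the saline and 0.00 in the naive liver. Lrat, the enzyme that esterifies retinol for storage, had 206 reads in the miR-27b, 191.2 in the siRNC, 127.5 in the saline and 128 in the naive library. The livers given cells were the higher ones, with log2 folds over naive of 0.72 in the miR-27b (0.39 to 1.05) and 0.54 in the siRNC liver (0.21 to 0.87), against -0.09 in the saline liver (-0.45 to 0.28).

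The siRNC liver was compared with the saline liver to set the cells against saline. At least 2-fold higher in the siRNC liver were 9 of 37 genes (24.3%), against 2.49% of all genes: Col1a1, Col1a2, Col6a3, Lum, Dcn, Postn, Thbs1, Thbs2 and Acta2. Eln was at least 2-fold lower (2.70%), against 1.90% of all genes. The median of the 37 genes was 0.18, so the larger folds were held by a subset. For 10 of 37 genes (27.0%) the siRNC library was the highest of the 4, against 21.2% of all genes. For 6 genes (16.2%), Col1a1, Col1a2, Dcn, Lum, Postn and Thbs1, it was at least 2-fold above each other library, against 0.395% of all genes. Lum and Postn passed the filter through that library alone. Thbs1 and Col6a3 lay in the lowest class that passed and may have passed through that library alone too. The saline library of Thbs1 may also be at the floor. Neither this share nor the 24.3% over saline is therefore support for a pattern. With a stricter filter, 2 of 17 genes (11.8%) were at least 2-fold above saline, against 1.56% of that set. All of it rests on 1 library with no replicate.

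The miR-27b liver was compared with the siRNC liver, as both received cells. At least 2-fold higher in the miR-27b liver were Timp1 and Myl9 (5.41%), against 3.70% of all genes. With so few genes this is near the share of all genes, and Timp1 passed the filter only through the miR-27b library. At least 2-fold lower were Col1a1, Col1a2, Lum, Dcn, Postn and Thbs1 (16.2%), against 2.61%. Lum and Postn passed the filter only through the siRNC library, and Thbs1, in the lowest class, may have too, so this share is no support for a pattern. These 6 are the genes in which the siRNC library stood above every other, and that library is the lower term here and the upper term in the comparison with saline, so the 2 are not independent. Over all 37 genes, 26 were above 0 (70.3%), against 50.6% of all genes, with a median of 0.30. This was not particular to them. In lists described below, 13 of 14 macrophage, 13 of 14 endothelial and 8 of 10 hepatocyte markers were above 0. Their medians were 0.37, 0.30 and 0.25. Only 5 of 13 TGF beta and PDGF genes and 2 of 7 other collagens were above 0. Of the 29 genes within 2-fold, 24 were above 0, with a median of 0.34. These 29 were set apart by the same fold, which took out more low than high genes, so they add no support. The miR-27b library was the highest of the 4 for 23 of 37 genes (62.2%), against 25.4% of all genes. It was at least 2-fold above each other library for 0 genes, against 1.26% of all genes.

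Set against the saline liver, the miR-27b liver was higher in 34 of 37 genes (91.9%), against 50.4% of all genes, with a median log2 fold of 0.48. In lists described below, 12 of 14 macrophage, 10 of 14 endothelial and 7 of 10 hepatocyte markers were also higher. Only 5 of 13 TGF beta and PDGF genes and 3 of 7 other collagens were. At least 2-fold higher were Col6a3, Thbs1, Thbs2, Acta2 and Tagln (13.5%), against 3.27% of all genes, and 0 genes were at least 2-fold lower, against 2.04%. The folds were 2.14 for Acta2 (95% interval 1.45 to 2.88), 1.57 for Thbs2, 1.19 for Col6a3 and 1.03 for Tagln. Thbs1 was at 3.23, but its saline library may be at the floor, so this is no firm ratio. With a pseudocount of 5 reads, Thbs1 was at 0.98, Col6a3 at 0.58 and Tagln at 0.84, all under 2-fold, and Acta2 and Thbs2 stayed past it at 1.91 and 1.43.

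Other genes of the matrix were read from lists that leave out the 41, against the same shares of all genes at least 2-fold above naive (8.97% in the miR-27b, 6.24% in the siRNC and 5.91% in the saline liver). Among genes of collagen modification and secretion, 13 of 21 passed the filter, and 3 (23.1%) were at least 2-fold above naive in the miR-27b, 3 (23.1%) in the siRNC and 1 (7.69%) in the saline liver, the last near the share of all genes. Pcolce, an enhancer of procollagen processing, stood 4.30 above naive in the miR-27b, 2.68 in the siRNC and 2.78 in the saline liver. Serpinh1, the collagen chaperone, stood 1.55, 1.32 and 0.72 above naive in the miR-27b, siRNC and saline livers. Of 12 basement membrane and elastic fibre genes of 28 that passed, 4 (33.3%) were at least 2-fold higher in the miR-27b, 4 (33.3%) in the siRNC and 3 (25%) in the saline liver. They included Fbln5, an elastic fibre assembly protein, at 2.75 in the miR-27b, 1.04 in the siRNC and 1.62 in the saline liver, and Nid1, a basement membrane linker, at 2.03, 1.25 and 1.57 in the same order.

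Of the other collagens, 7 of 18 passed. By 2-fold, 2 were higher (28.6%) and 2 lower in the miR-27b, and 3 higher (42.9%) and 1 lower in the siRNC liver. In the saline liver 2 were higher (28.6%) and 0 lower. Of all genes, 4.47%, 3.82% and 4.16% were at least 2-fold lower in the same order. With so few genes these counts cannot be told from the shares of all genes. Col16a1, a collagen bound to fibre surfaces, had 16.3 reads in the miR-27b, 22.5 in the siRNC, 15.5 in the saline and 4 in the naive library. Of other proteoglycans and matricellular genes, 9 of 22 passed, with 1 (11.1%), 2 (22.2%) and 1 (11.1%) at least 2-fold higher in the miR-27b, siRNC and saline livers, which with so few genes is near the shares of all genes. Ctgf, a matricellular target of TGF beta, stood 0.98 above naive in the miR-27b, 1.61 in the siRNC and 1.09 in the saline liver. Of other proteases and inhibitors, 13 of 24 passed, with 5 (38.5%), 3 (23.1%) and 2 (15.4%) at least 2-fold higher in the same order. Those higher in the miR-27b and siRNC livers include Mmp8, whose passing of the filter is doubtful (see the neutrophil markers below).

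For TGF beta and PDGF signalling, 13 of 16 genes passed. By 2-fold, 3 were higher (23.1%) and 1 lower in the miR-27b, and 2 higher (15.4%) and 1 lower in the siRNC liver. In the saline liver 2 were higher (15.4%) and 1 lower. Of all genes, 4.47%, 3.82% and 4.16% were at least 2-fold lower in the same order, and counts this small cannot be set apart from them. The ligand gene Tgfb2 had 24.2 reads in the miR-27b, 12 in the siRNC, 15 in the saline and 1 in the naive library. It is among the genes counted as higher, and it passed the filter only through the miR-27b library. Its log2 folds over naive had wide intervals, at 4.63 (95% interval 2.0 to 9.98) in the miR-27b, 3.54 (0.79 to 8.96) in the siRNC and 3.82 (1.12 to 9.21) in the saline liver. The ligand gene Tgfb3 stood 1.90, 2.25 and 1.71 above naive in the same order. Smad7, the inhibitor of the pathway, was at -1.86 in the miR-27b, -1.57 in the siRNC and -1.67 in the saline liver. Of collagen and matrix receptors, 11 of 18 passed, with 3 (27.3%), 1 (9.09%) and 1 (9.09%) at least 2-fold higher in the miR-27b, siRNC and saline livers, of which the last 2 shares are near those of all genes. Cd36, a thrombospondin and fatty acid receptor, stood 3.13 above naive in the miR-27b, 2.85 in the siRNC and 2.78 in the saline liver.

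Markers of the cell types that share these genes, or that a liver sample holds beside them, were read in the same way. Of quiescent stellate cell markers, 10 of 13 passed, with medians over naive of 0.46 in the miR-27b, 0.10 in the siRNC and 0.21 in the saline liver, and Ntrk2 was listed at 0. Of pericyte and smooth muscle markers, 8 of 13 passed, of which 4, 3 and 1 were at least 2-fold above naive in the miR-27b, siRNC and saline livers, with medians of 0.86, 0.63 and 0.44. Tpm2, a muscle tropomyosin, stood 1.69, 1.85 and 1.72 above naive, while Smtn, a smooth muscle cytoskeletal gene named here after its values were seen, was at -0.27, -0.30 and -0.56. Of portal fibroblast and mesothelial markers 2 of 12 passed: Entpd2, a nucleotidase of portal fibroblasts, stood 2.62, 2.36 and 2.54 above naive in that order, and the other lay within 2-fold of naive. Gli1, Lrrn4, Upk3b and Wt1 were listed at 0 in all libraries.

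Of adipose stromal markers, 6 of 12 passed, with medians over naive of 0.86 in the miR-27b, 0.32 in the siRNC and 0.26 in the saline liver. Fabp4, a fatty acid carrier of adipocytes and endothelium, stood 4.50, 3.37 and 2.97 above naive in that order, so it was high also without cells. Ly6c and Twist2 were listed at 0. Macrophage and Kupffer cell markers were higher in every hepatectomised liver: 14 of 16 passed, of which 14, 11 and 14 were at least 2-fold above naive in the miR-27b, siRNC and saline livers, with medians of 1.56, 1.26 and 1.35. Among them Marco, a scavenger receptor, stood 2.65, 2.01 and 2.50 above naive.

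Of neutrophil markers 3 of 12 were counted as passing, and for Mmp8 this is doubtful. S100a9, a calcium-binding protein of neutrophils and monocytes, stood 5.19 above naive in the miR-27b, 3.96 in the siRNC and 2.79 in the saline liver. S100a8 and Mmp8 were placed in the class of at least 4 reads, where the livers in which they were high weighed in the filter, so no median is given. The value of Mmp8 was the same in the saline and naive livers, as it is for genes at the floor in both. Its siRNC value stood 1.58 above them, the same fold as for Mmp9, which had 3 reads there. Mmp8 may therefore lie below that class and below the filter. The defining genes Mpo, Elane, Ltf and Camp were listed at 0. Of endothelial markers 14 of 15 passed, with medians of 0.63, 0.18 and 0.35, and of cholangiocyte markers 3 of 8, with 0.58, 0.22 and 0.99. All 10 hepatocyte markers passed, with medians of 0.10, -0.18 and -0.01. Macrophage markers, some smooth muscle markers and S100a9 were thus higher than naive along with the matrix genes, and their part in the result was not tested. Summed levels of a list cannot be given, because the values hold only differences within a gene.

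**Figure D4:**
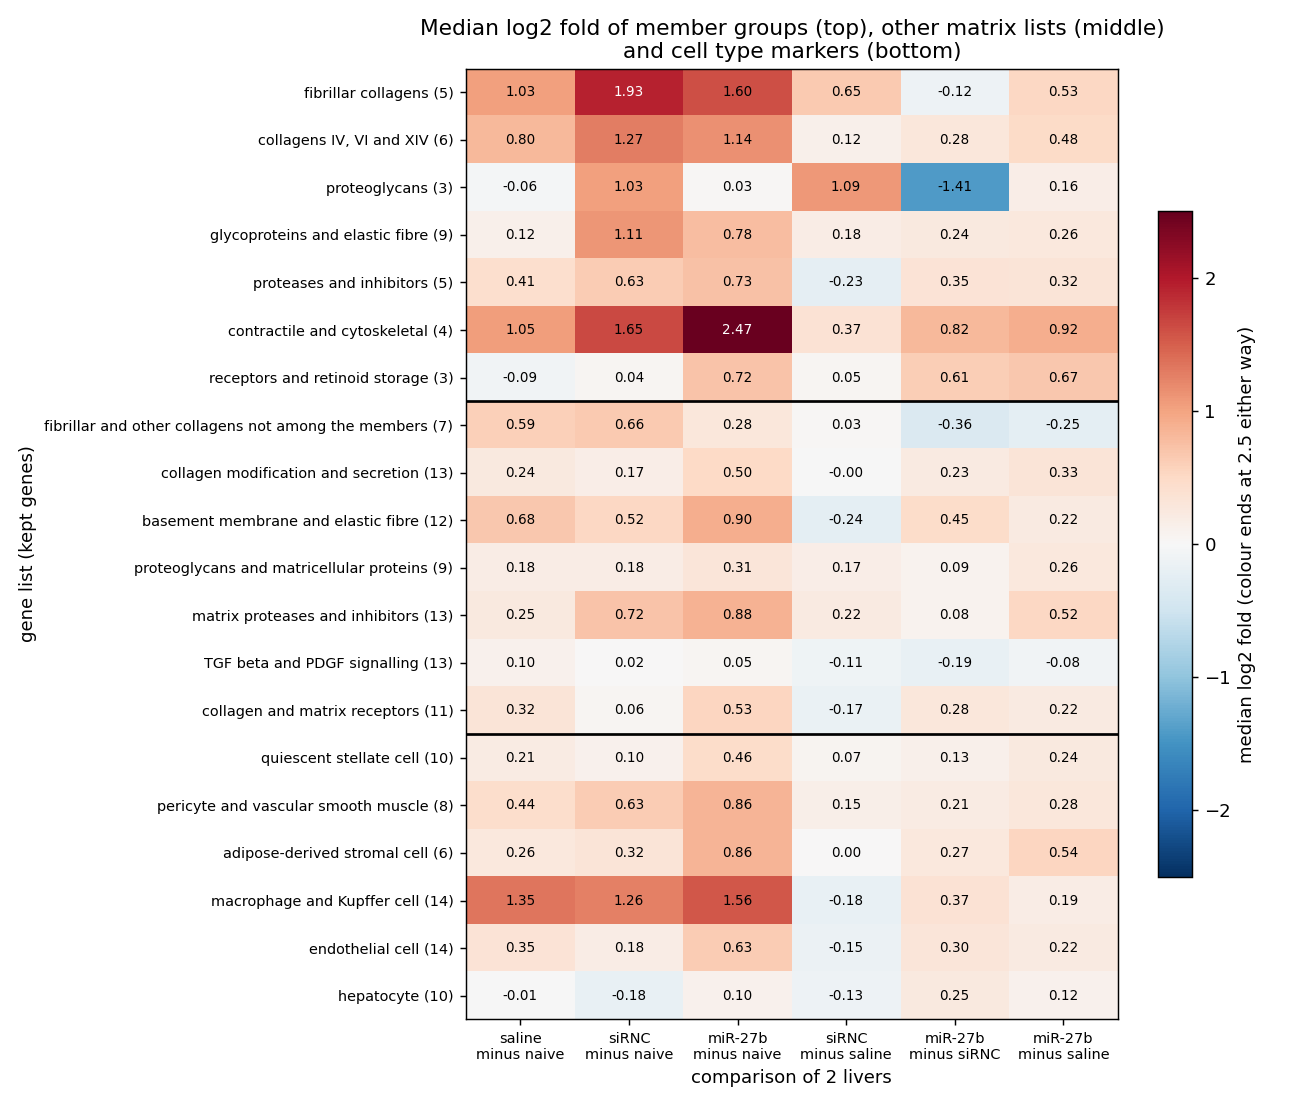
Colour gives the median log2 fold of each gene list (rows, kept genes only; groups of the 41 with at least 3 and other lists with at least 5) in each comparison of 2 livers (columns), with groups of the 41 genes at the top, other matrix lists in the middle and cell type markers at the bottom. Contractile genes stand at 2.47, 1.65 and 1.05 over naive in the miR-27b, siRNC and saline livers, and hepatocyte markers at 0.10, -0.18 and -0.01.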

How the data were processed

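Poly(A)-selected liver RNA of Lewis rats was sequenced in 4 libraries on an Illumina MiSeq after TruSeq preparation, per the labels' protocols. The authors deposited normalized log2 values, per the file headers and the values themselves. DESeq (no version) and build rn5 are named per the submitters' processing notes. No aligner or counter is named in these sources. Of the 12874 genes not at 0 throughout, 77.3% have a middle library at exactly 0. The log2 values therefore compare libraries within a gene and give no level.

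Reads were inferred where whole reads, or steps of 1/101 or 1/202 of a read, fitted all 4 libraries (posterior above 0.85). The worth of 1 read came from genes above baseline in 1 library alone. Otherwise a level class (at least 4, 16 or 256 normalized reads at the baseline, probability at least 0.5) came from the rounding of the stored values. The method was tested on simulated data. Kept were 9871 of 31457 genes, whose mean reached 10 normalized reads (probability at least 0.5 where reads were not inferred), of which 1616 had inferred reads. Of their inferred values, 67.7% were whole within 0.001 of a read.

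Folds are differences of log2 values with no pseudocount. Intervals are exact conditional binomial 95% intervals on reads rounded to whole numbers, and cover only counting error, because reads copied by PCR are not separate molecules. With 1 library per group no test was made. Alternatives were no filter, a stricter filter, a pseudocount of 5 reads, centring and a 1.5-fold threshold. All 41 genes are reported, and other genes are named only from fixed lists, up to 4 per list and comparison, by size of fold; 1 such gene is not reported here. The genes and lists were chosen with earlier results of these data known. Python 3.11.15, numpy 2.4.6, pandas 2.3.3 and scipy 1.17.1 were used.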

Additional observations from a re-analysis of the deposited data

How the results depend on the processing

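Centring each comparison on the median of all genes left all 246 single-gene folds within counting error, and 91 of 91 folds past 2-fold stayed past it. With a pseudocount of 5 reads, 65 of these 91 stayed past 2-fold, which its construction shrinks most for genes placed at the bottom of their class, and the median of the 37 genes in the siRNC against the naive liver was 0.87. With that pseudocount, 2 genes were higher in miR-27b against saline, 0 in miR-27b against siRNC, and 1 was lower in saline against naive. No fold or median changed sign under any alternative listed here.

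With a stricter filter (a mean of at least 50 reads, or the class of at least 256), 17 genes were left. Of these, 7 (41.2%) were at least 2-fold higher in miR-27b, 9 (52.9%) in siRNC and 5 (29.4%) in saline against naive, where 8.18%, 4.70% and 4.51% of the 3215 genes of that set were. Higher were 2 in siRNC against saline (1.56% of the set), 1 in miR-27b against saline (3.17%), and 0 in miR-27b against siRNC (3.76%). Lower were 0 against naive in each liver and 1 in miR-27b against siRNC (1.56%), and the median of miR-27b against saline was 0.32. These counts fell in part because fewer genes were counted, but most shares between hepatectomised livers fell too. Of the 17, 11.8% were higher in siRNC against saline, where 24.3% of the 37 were. For miR-27b against saline the share higher was 5.88% in place of 13.5%. The share lower in miR-27b against siRNC was 5.88% in place of 16.2%. With no filter, 2 were lower in miR-27b against naive.

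At 1.5-fold, 29 genes were higher in miR-27b and 20 in saline against naive, where 15.6% and 13.2% of all genes were, and 14 in miR-27b against saline and 10 against siRNC, where 9.08% and 9.44% were. Lower at 1.5-fold were 2 in miR-27b against naive and 2 in siRNC against saline, against 12.8% and 7.02% of all genes. No paired analysis was possible because each group holds 1 library, and for that reason no library could be left out. Few reads limit the precision of Lum, Postn, Timp1, Fmod, Loxl1 and Mmp9.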
